A study of Mus musculus with 4 samples.

Results

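The constitutive proteasome genes were defined by name, as every probe whose platform gene symbol was Psma, Psmb, Psmc or Psmd followed by a digit, leaving out the interferon-inducible subunits Psmb8, Psmb9 and Psmb10. The rule found 51 probes of 34 genes, out of 25697 probes on the array, and 28 of these genes were tested, among 8442 tested genes in all. A gene was tested where 2 or more of the arrays gave a probe of it a detection p under 0.05, a measure of signal against negative control beads. RNA came from gut epithelial cells of mice on the C57BL/6 background and was read on 4 Illumina bead arrays of 1 colour. There were 2 samples from Ifnar1-/- mice, which lack a chain of the type I interferon receptor, and 2 from Ifnar1+/+ mice. Both groups carried floxed Csnk1a1 alleles and Vil1-Cre-ERT2, a tamoxifen-activated recombinase driven by the villin promoter of the gut epithelium, so the titles' wild type is wild type for Ifnar1 only. Csnk1a1 encodes casein kinase 1 alpha, which marks beta-catenin for destruction. Tamoxifen was injected at 120 mg/kg on each of 2 successive days in all mice, and the epithelium was detached with EDTA in the cold on day 5 after the second dose.

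The proteasome is the protease that degrades ubiquitin-tagged proteins in the cytosol and nucleus. Its core particle is a barrel of stacked rings, in which alpha subunits gate the entrance and beta subunits carry the active sites. A regulatory particle caps the barrel: a ring of ATPases unfolds the substrate, and other subunits bind and remove the ubiquitin. Interferons induce alternative catalytic subunits that take the place of the standard ones and change which peptides are made for display on MHC class I molecules. The gut epithelium renews itself within days, and proteasome activity is needed in all of its cells.

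The labels give the tissue as colon, but the protocol names the middle part of the small intestine. Of the small intestine markers with a probe, 6 of 6 were detected on all 4 arrays, against 1 of 6 colon markers. The colon markers Aqp8, Hoxb13, Hoxd10 and Slc26a3, 4 in all, were detected on none. The absorptive enterocyte markers Fabp1 and Fabp2 were also detected on no array, so an undetected probe does not by itself show that a gene is silent. The epithelial markers were detected on every array in 9 of 9 cases. Between 11234 and 11954 probes per array had a detection p under 0.05, and the small number of arrays limits the precision. The probes for Ifnar1 and Csnk1a1 were not well above background on any array, so they do not check the genotype labels. The samples of a group are not said to come from separate animals, so the p-values reflect only how far these samples vary, and that variation may be technical. The arrays lay on 1 chip, on which the position follows the group, so position and genotype cannot be told apart. In RNA from a mixed preparation, fewer cells of a type and less RNA per cell cannot be told apart.

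No constitutive proteasome gene passed the test for a difference between the genotypes. Of the 28 tested, 0 passed an adjusted p of 0.05 in limma (Benjamini-Hochberg over all tested genes), and 0% of all tested genes passed. None of the 28 had an unadjusted p under 0.05, against 9.52% of all tested genes (4.25% higher and 5.27% lower in Ifnar1-/- cells, as shares of all tested genes). The mean was higher in Ifnar1-/- cells for 23 of the 28 genes and lower for 5, where 53% of all tested genes had a higher mean. The median log2 difference (Ifnar1-/- minus Ifnar1+/+) was 0.22, which is a 1.16-fold higher level, against 0.03 over all tested genes. The single genes ranged from -0.54 to 0.76, and each 95% interval of a difference held 0. The value of 0.76 was that of Psmc3ip, which matches the rule by name but is not a proteasome subunit. Without it the largest difference was 0.40. For 22 of the 28 genes the whole interval lay within 1 log2 unit of 0 on either side, and for the others a 2-fold difference lay within the interval.

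**Figure D1:**
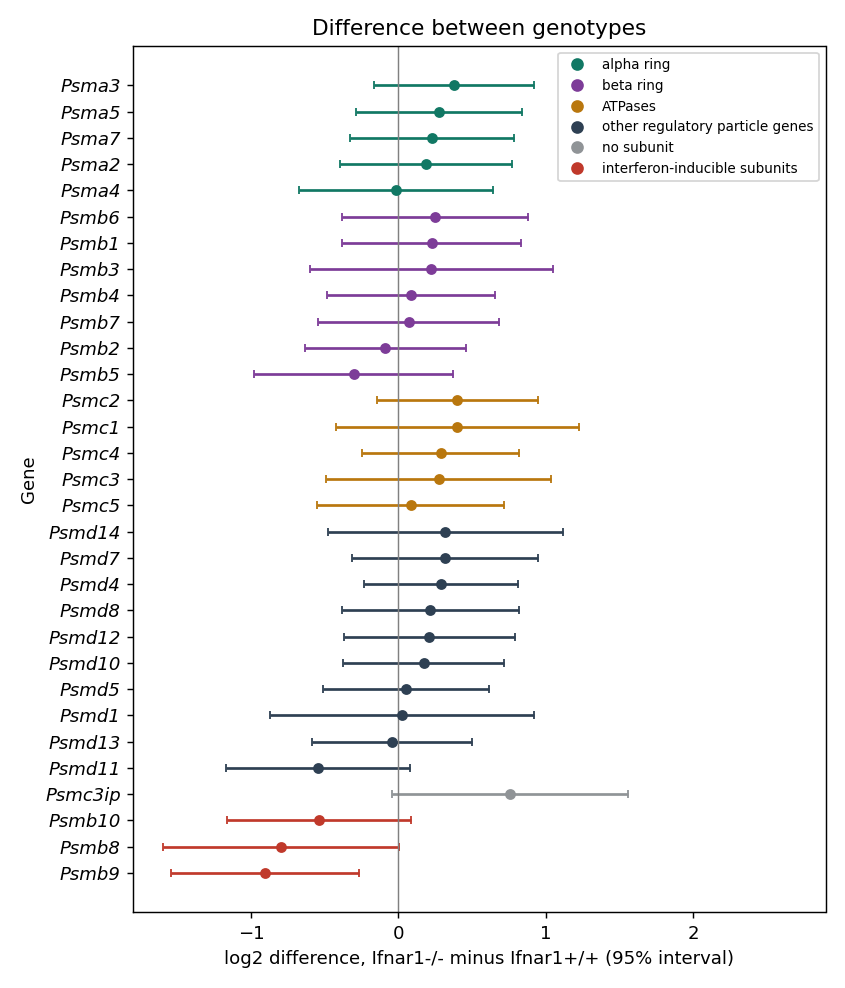
Log2 differences (Ifnar1-/- minus Ifnar1+/+, n = 2 arrays per group) on the x axis for each tested gene, with points for the estimates and bars for 95% intervals of the limma fit, and with colours for the role of the gene. The intervals of all 28 tested genes of the rule, with Psmc3ip (no subunit) among them, cross 0, and Psmb9 among the inducible subunits lies below 0.

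The 2 Ifnar1-/- arrays disagreed on these genes in 1 direction. Ifnar1-/- array 1 was above Ifnar1-/- array 2 for 28 of 28 genes, whereas it was above it for 49.3% of all tested genes. It was the highest of the 4 arrays for 25 of them, where 34.4% of all tested genes had their highest value there, and the exceptions were Psmb5, Psmd11 and Psmd13. Set against the mean of the Ifnar1+/+ arrays, the median gene lay at 0.38 (log2) on Ifnar1-/- array 1 and at -0.04 on Ifnar1-/- array 2, with -0.02 and 0.02 on the Ifnar1+/+ arrays. Ifnar1+/+ array 1 was above Ifnar1+/+ array 2 for 12 of the 28 genes and for 50.2% of all tested genes. Ifnar1-/- array 2 was above both Ifnar1+/+ arrays for 9 genes, below both for 13 and between them for 6. The median gap between arrays of 1 genotype was 0.38 in the Ifnar1-/- pair and 0.08 in the Ifnar1+/+ pair, against 0.35 and 0.19 over all tested genes. For 21 of the 28 genes the difference between genotypes was smaller than the gap between the Ifnar1-/- arrays. No share over all tested genes is given for this count or for the placements of Ifnar1-/- array 2, so neither is read as particular to these genes. Without Ifnar1-/- array 1 the median difference was -0.04, with 12 genes higher and 16 lower. Without Ifnar1-/- array 2 it was 0.38, with 26 higher and 2 lower.

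**Figure D2:**
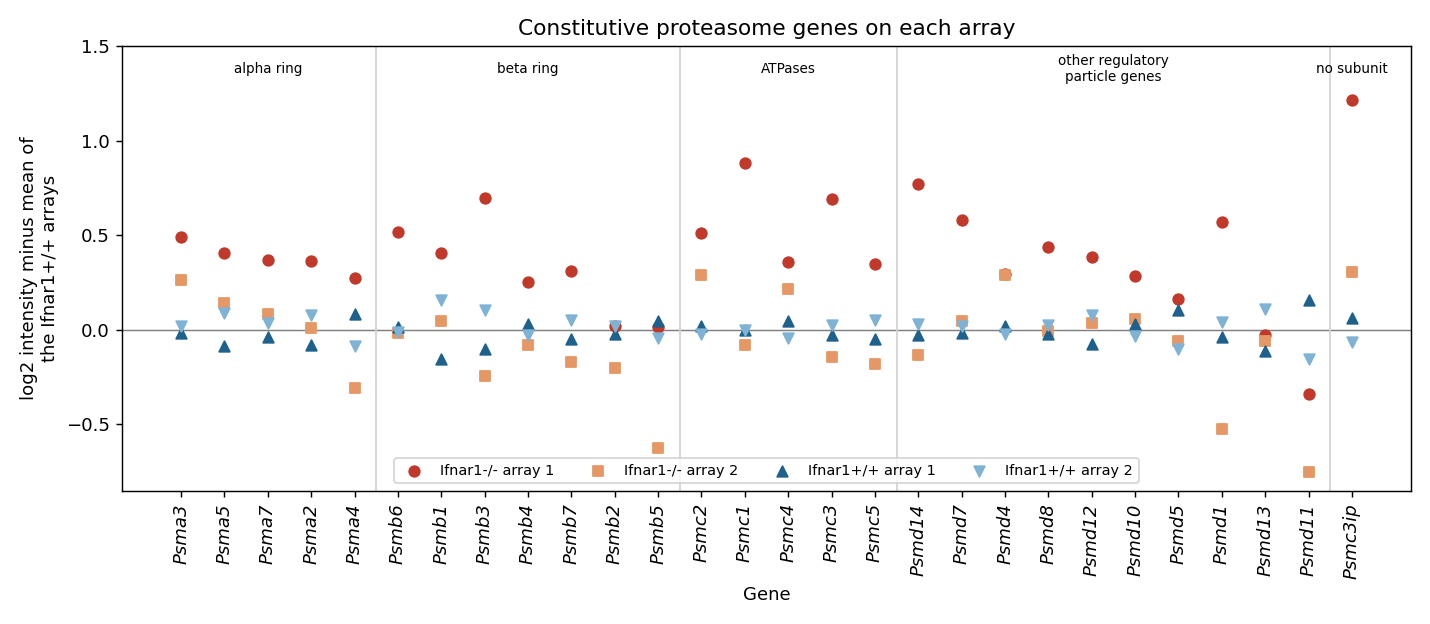
Normalized log2 intensity of each tested gene (x axis) on each array, given relative to the mean of the Ifnar1+/+ arrays (y axis), with grey lines between the roles. The red circles of Ifnar1-/- array 1 lie above the squares of Ifnar1-/- array 2 for every gene, and the squares scatter around the Ifnar1+/+ level.

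The genes of the alpha ring, which forms the gate of the core particle, numbered 7, of which 5 were tested. Their median difference was 0.23, with 4 higher and 1 lower. Psma3 had the smallest unadjusted p of the ring. It had log2 intensities (background-corrected and quantile-normalized) of 12.80 and 12.58 on the Ifnar1-/- arrays, against 12.30 and 12.33 on the Ifnar1+/+ arrays. Both Ifnar1-/- values were above both Ifnar1+/+ values, and the difference was 0.38 ± 0.23 (SE; limma adjusted p = 0.60). The other Psma3 probe was not detected on any array. Psma5 stood at 13.27 and 13.00 in Ifnar1-/- cells and at 12.77 and 12.95 in Ifnar1+/+ cells, a difference of 0.27 ± 0.24 (SE). Psma7, with 11.56 and 11.28 on the Ifnar1-/- arrays against 11.16 and 11.23 on the Ifnar1+/+ arrays, differed by 0.23 ± 0.23. The groups did not overlap for these 3 genes, as for 23.9% of all tested genes with Ifnar1-/- higher. In Psma5 and Psma7 the lower Ifnar1-/- array lay only 0.05 above the higher Ifnar1+/+ array. Psma2 overlapped, with a difference of 0.19, and Psma4 differed by -0.02, with 12.04 and 11.46 in Ifnar1-/- cells against 11.85 and 11.68 in Ifnar1+/+ cells.

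All 7 genes of the beta ring were tested, and none had groups that did not overlap. Of all tested genes, 23.9% were apart with Ifnar1-/- higher and 19.5% with Ifnar1-/- lower. The median difference was 0.08, with 5 higher and 2 lower. The active sites are on 3 of these subunits: Psmb5 cuts after hydrophobic residues, Psmb6 after acidic residues and Psmb7 after basic residues. Psmb5 had the smallest p of the ring and a lower mean, at 8.44 and 7.80 in Ifnar1-/- cells and at 8.47 and 8.38 in Ifnar1+/+ cells. Only Ifnar1-/- array 2 lay apart, and the difference of -0.30 ± 0.28 (SE) had a limma adjusted p of 0.73. Without Ifnar1-/- array 2 the Psmb5 difference was 0.02. Psmb6 had the opposite arrangement, at 11.004 and 10.47 on the Ifnar1-/- arrays and at 10.50 and 10.47 on the Ifnar1+/+ arrays, so that only Ifnar1-/- array 1 was high. All arrays together gave 0.25 ± 0.26, and leaving out Ifnar1-/- array 1 gave -0.02. Psmb7 had 10.37 and 9.89 in Ifnar1-/- cells against 10.01 and 10.11 in Ifnar1+/+ cells, a difference of 0.07 ± 0.26, and of -0.17 without Ifnar1-/- array 1. Its 3 probes gave differences between 0.06 and 0.10.

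The other 4 beta subunits have no active site and build the ring. Psmb1 stood at 11.42 and 11.06 in Ifnar1-/- cells and at 10.86 and 11.17 in Ifnar1+/+ cells, with a difference of 0.22 ± 0.25 (SE). Psmb3 differed by 0.22, Psmb4 by 0.08 and Psmb2 by -0.09, and in each of them Ifnar1-/- array 2 had the lowest value of the 4 arrays. The values of Psmb2 spanned 0.22 over all arrays, and its 2 detected probes gave the same difference of -0.09.

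Of 6 ATPase genes, whose products unfold the substrate and thread it into the core, 5 were tested, and all 5 had a higher mean in Ifnar1-/- cells. Their median difference was 0.29. Psmc2 had the smallest p of the ATPases, with 12.86 and 12.64 in Ifnar1-/- cells against 12.37 and 12.33 in Ifnar1+/+ cells. The groups did not overlap, as for 23.9% of all tested genes in this direction, and the difference was 0.40 ± 0.23 (SE; limma adjusted p = 0.59). Psmc4 likewise did not overlap, at 11.76 and 11.61 on the Ifnar1-/- arrays and at 11.44 and 11.36 on the Ifnar1+/+ arrays, a difference of 0.29 ± 0.22. In Psmc1 the difference was as large, 0.40 ± 0.34, but came from 1 array. Its values were 9.64 and 8.67 in Ifnar1-/- cells and 8.76 and 8.76 in Ifnar1+/+ cells, and without Ifnar1-/- array 1 it differed by -0.08. Psmc3 and Psmc5 had differences of 0.27 and 0.08, and in both Ifnar1-/- array 2 was below the Ifnar1+/+ arrays.

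The 13 Psmd genes that the rule found include ubiquitin receptors, the deubiquitinase, scaffold subunits and chaperones that help to assemble the particle. Genes of the regulatory particle outside the name rule or without a probe are not among them. Of these, 10 were tested, with a median difference of 0.19, 8 higher and 2 lower. Psmd11, a scaffold subunit of the lid, had the smallest p. It was the only constitutive gene lower on both Ifnar1-/- arrays than on both Ifnar1+/+ arrays, as 19.5% of all tested genes were. It had 6.81 and 6.40 in Ifnar1-/- cells against 7.30 and 6.99 in Ifnar1+/+ cells. The difference of -0.54 ± 0.26 (SE) had a limma adjusted p of 0.54, and it was -0.27 with no background correction. The gap between the nearest arrays of the 2 genotypes, 0.18, was smaller than the gap within either genotype. Its other 2 probes were not detected on any array.

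Psmd4, a receptor that binds ubiquitin chains, had the closest replicates of the set. It stood at 12.71 and 12.70 in Ifnar1-/- cells and at 12.43 and 12.39 in Ifnar1+/+ cells, a difference of 0.29 ± 0.22 (SE; limma adjusted p = 0.66). The gap between genotypes was several times that between arrays of 1 genotype, while the standard error, moderated toward the spread of all genes, was far larger than its own replicate spread. Psmd7, which pairs with the deubiquitinase in the lid, had 11.19 and 10.66 in Ifnar1-/- cells against 10.59 and 10.63 in Ifnar1+/+ cells. Its difference was 0.31 ± 0.26, and its other detected probe gave 0.42. The deubiquitinase itself, Psmd14, lay at 9.06 and 8.16 on the Ifnar1-/- arrays and at 8.26 and 8.32 on the Ifnar1+/+ arrays, so that only Ifnar1-/- array 1 was high.

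The lid scaffold genes Psmd12 and Psmd8 differed by 0.21 and 0.22, and the lid subunit gene Psmd13 by -0.04. Psmd1, the large scaffold of the base, had the widest gap between the Ifnar1-/- arrays among the subunits, at 8.24 and 7.14 against 7.63 and 7.71 in Ifnar1+/+ cells, and a difference of 0.02 ± 0.37 (SE). Psmd5 and Psmd10, chaperones that leave the finished particle, differed by 0.05 and 0.17. Psmd10 was the only gene whose detected probes disagreed in direction. The probe that stood for it, its brightest, gave 0.17, another gave 0.00 and the third gave -0.30.

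Of the 9 genes whose groups did not overlap with Ifnar1-/- higher (23.9% of all tested genes did so), 8 were subunits or assembly factors: Psma3, Psma5, Psma7, Psmc2, Psmc4, Psmd4, Psmd7 and Psmd10. The ninth was Psmc3ip. It matched the rule by name only, since it encodes a partner of the recombinases of meiosis that was named for binding Psmc3, and it is not a proteasome subunit. Psmc3ip had 7.86 and 6.95 in Ifnar1-/- cells against 6.71 and 6.59 in Ifnar1+/+ cells, the largest difference of the set at 0.76 ± 0.33 (SE; limma adjusted p = 0.53). It was 0.41 with no background correction and 0.30 without Ifnar1-/- array 1. Without it the median of the other 27 genes was 0.22, as before. Psmd11 was the 1 gene whose groups did not overlap with Ifnar1-/- lower, as 19.5% of all tested genes did.

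The other 6 genes gave no usable level. Psma1, Psma6, Psmc6, Psmd2, Psmd6 and Psmd9 had 9 probes in all, with raw signals of 109.3 to 173.1, and 6 of these probes were detected on no array and 3 on 1 Ifnar1-/- array. Psma1 and Psma6 belong to the alpha ring, Psmc6 to the ATPases, and Psmd2, Psmd6 and Psmd9 to the other regulatory particle genes. The 28 tested genes were detected on all 4 arrays, though some of them, such as Psmd11, were dim. An undetected probe does not by itself show a silent gene, so these signals were not read as a low level of the gene.

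Promoters of 29 of the 34 genes were found in the RefSeq promoter table (GRCm38.p6, 250 bases before to 50 after the gene start). They were searched on both strands for TGACNNNGC, the core of the element bound by Nfe2l1 and Nfe2l2. Nfe2l1 is known to raise proteasome gene expression when the proteasome is inhibited. The letters occurred in 5 of the 29 genes (17.2%) and in 14% of all genes in the table. CCAAT, the box bound by NF-Y, occurred in 12 of the 29 (41.4%) and in 41.1% of all genes. Psmb5, Psmb6 and Psmd12 were the tested genes with TGACNNNGC, Psmb5 and Psmb6 being the catalytic subunits with differences of opposite sign above. Their windows, at chr14:54617946-54618245 (minus strand), chr11:70525107-70525406 (plus strand) and chr11:107479278-107479577 (plus strand), are given 5′ to 3′ on the strand of the gene with the match in capitals, which in Psmd12 lies on the opposite strand. The window of Psma3 (chr12:70974373-70974672, plus strand), the core particle gene with the largest difference, has no TGACNNNGC and is shown with its CCAAT matches on either strand in capitals.
Psmb5: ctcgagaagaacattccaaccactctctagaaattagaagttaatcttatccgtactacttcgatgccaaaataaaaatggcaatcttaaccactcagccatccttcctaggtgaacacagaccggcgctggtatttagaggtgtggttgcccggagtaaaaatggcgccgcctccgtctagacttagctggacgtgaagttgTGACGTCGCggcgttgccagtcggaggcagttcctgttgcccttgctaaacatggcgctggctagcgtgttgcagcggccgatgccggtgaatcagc
Psmb6: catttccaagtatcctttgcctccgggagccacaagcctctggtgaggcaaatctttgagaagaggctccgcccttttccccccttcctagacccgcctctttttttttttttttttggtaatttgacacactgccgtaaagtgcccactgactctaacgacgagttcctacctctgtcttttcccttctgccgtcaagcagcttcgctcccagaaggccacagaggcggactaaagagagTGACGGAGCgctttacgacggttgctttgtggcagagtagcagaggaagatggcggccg
Psmd12: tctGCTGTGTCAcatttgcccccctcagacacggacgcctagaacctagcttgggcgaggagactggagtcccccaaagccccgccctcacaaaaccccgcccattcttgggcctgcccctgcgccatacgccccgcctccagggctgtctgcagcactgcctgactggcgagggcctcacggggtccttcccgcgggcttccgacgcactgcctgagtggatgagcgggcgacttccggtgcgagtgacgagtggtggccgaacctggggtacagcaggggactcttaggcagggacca
Psma3: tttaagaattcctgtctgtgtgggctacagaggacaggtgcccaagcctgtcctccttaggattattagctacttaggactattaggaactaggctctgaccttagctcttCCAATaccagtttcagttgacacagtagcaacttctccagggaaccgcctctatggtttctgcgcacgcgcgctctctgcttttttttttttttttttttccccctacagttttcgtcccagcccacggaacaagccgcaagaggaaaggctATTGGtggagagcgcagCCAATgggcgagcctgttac
A match of this kind is a description of the letters. Psmb5, Psmb6 and Psmd12 differed by -0.30, 0.25 and 0.21.

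The interferon-inducible subunits, which replace the standard catalytic ones, were lower on both Ifnar1-/- arrays than on both Ifnar1+/+ arrays in 3 of 3 cases, an arrangement that 19.5% of all tested genes had. Psmb9 had 8.33 and 8.58 in Ifnar1-/- cells against 9.11 and 9.61 in Ifnar1+/+ cells, a difference of -0.91 ± 0.27 (SE; limma adjusted p = 0.49). Psmb8, at 5.49 and 6.03 against 6.19 and 6.93 in Ifnar1+/+ cells, differed by -0.80 ± 0.33. This gene is dim, and its difference was -0.31 with no background correction. Psmb10, at 10.81 and 10.93 against 11.16 and 11.66 in Ifnar1+/+ cells, differed by -0.54 ± 0.26. Within each array the inducible subunit was then set against the one it replaces, and the change of that log2 ratio between genotypes was tested over the arrays. The ratio of Psmb9 to Psmb6 was lower in Ifnar1-/- cells by 1.16 on the log2 scale (a difference of -1.16; exact two-sided permutation p = 0.333, adjusted p = 0.5 over 3 pairs). For Psmb10 and Psmb7 the difference was -0.61 (exact permutation p = 0.333, adjusted p = 0.5). For Psmb8 and Psmb5 it was -0.49 (exact permutation p = 0.667, adjusted p = 0.667), and it turned to 0.10 without Ifnar1-/- array 1. With 2 arrays against 2 the smallest p possible is 0.333, so this test cannot pass 0.05. The first 2 ratios were lower on both Ifnar1-/- arrays than on both Ifnar1+/+ arrays.

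**Figure D3:**
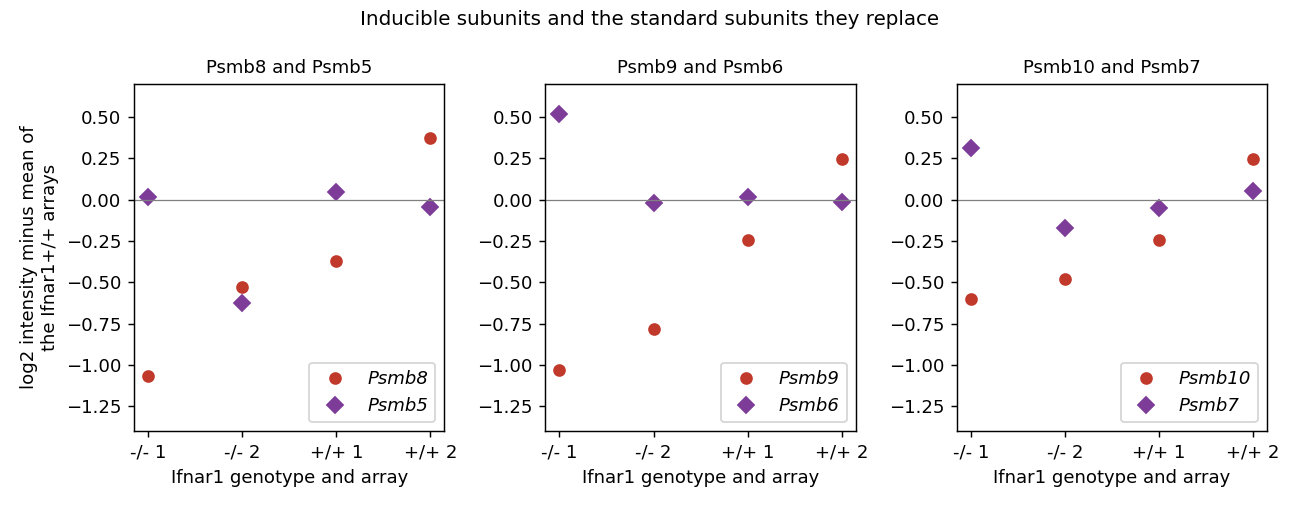
Normalized log2 intensity relative to the mean of the Ifnar1+/+ arrays (y axis) on each array (x axis) for each inducible subunit (circles) and the standard subunit it replaces (diamonds). The circles of the Ifnar1-/- arrays lie below those of the Ifnar1+/+ arrays in each panel. The diamonds lie above the Ifnar1+/+ mean on Ifnar1-/- array 1 (0.02, 0.52 and 0.31 for Psmb5, Psmb6 and Psmb7). They lie below it on Ifnar1-/- array 2 (-0.63, -0.02 and -0.17).

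Genes that act around the proteasome were also measured, and none passed the limma threshold. Of the activator genes, 3 were detected on all 4 arrays, 2 higher and 1 lower, with a median difference of 0.05. Psme1, which encodes a subunit of the interferon-inducible cap, had 11.43 and 11.37 in Ifnar1-/- cells against 11.73 and 11.93 in Ifnar1+/+ cells, a difference of -0.43 ± 0.23 (SE). Psme3, whose product caps nuclear proteasomes, stood at 10.06 on both arrays in Ifnar1-/- cells against 9.79 and 9.56 in Ifnar1+/+ cells, a difference of 0.39 ± 0.23. The groups of Psme1 and of Psme3 were apart, in opposite directions. Of all tested genes, 19.5% were apart with Ifnar1-/- lower and 23.9% with Ifnar1-/- higher. Psme2, which encodes the partner of Psme1 in the inducible cap, was detected on only 1 of the Ifnar1+/+ arrays. Its groups overlapped, with 6.24 and 5.63 in Ifnar1-/- cells against 6.23 and 5.27 in Ifnar1+/+ cells, a difference of 0.19 ± 0.38. The chaperones that assemble the core had a higher mean in 4 of 4 cases, with a median of 0.30. Psmg1 differed by 0.39 ± 0.23 and Psmg3 by 0.32 ± 0.25. For both, the Ifnar1-/- arrays were above the Ifnar1+/+ arrays, as for 23.9% of all tested genes.

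Of 7 other genes for particle-bound proteins and shuttle receptors that were detected on all 4 arrays, 6 were higher and 1 lower, with a median of 0.07. Usp14, a deubiquitinase that binds the regulatory particle, had 5.81 and 6.29 in Ifnar1-/- cells against 4.97 and 5.74 in Ifnar1+/+ cells, a difference of 0.69 ± 0.33 (SE), but it was detected on only 1 of the Ifnar1+/+ arrays and so passed the filter through the Ifnar1-/- arrays. Ubqln1, a shuttle for ubiquitinated proteins, differed by 0.30 ± 0.22. Of the genes for ubiquitin activation and transfer, 2 were detected on all 4 arrays, 1 higher and 1 lower. Uba6, a ubiquitin-activating enzyme, was not well above background in Ifnar1+/+ cells and passed the filter through the Ifnar1-/- arrays alone, so no difference is given for it. Ube2d3, a ubiquitin-conjugating enzyme, differed by 0.27 ± 0.30. Among 5 genes of the Vcp unfoldase, which extracts proteins for degradation, 4 were higher, with Ubxn1 at 0.39 ± 0.22 and Vcp itself at 0.27 ± 0.22.

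Of 5 genes of proteasome gene regulation, 2 were higher and 3 lower, with a median of -0.10. Nfe2l1, the activator that senses proteasome shortage, had 9.999 and 10.15 in Ifnar1-/- cells against 10.16 and 10.18 in Ifnar1+/+ cells, a difference of -0.10 ± 0.22 (SE). The smallest p of these belonged to Syvn1, a ubiquitin ligase of the endoplasmic reticulum, which differed by -0.59 ± 0.32, and the next to Mafg, a partner of Nfe2l1, with 0.24 ± 0.25. The Syvn1 values were 11.19 and 11.96 in Ifnar1-/- cells against 12.33 and 12.01 in Ifnar1+/+ cells, so Ifnar1-/- array 2 lay close to the Ifnar1+/+ arrays.

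Other gene groups also set Ifnar1-/- array 1 apart from Ifnar1-/- array 2. Cytosolic ribosomal protein genes, of which 54 were tested, had a median difference of 0.22 with 51 higher, and their median lay at 0.42 on Ifnar1-/- array 1 and at 0.03 on Ifnar1-/- array 2. Proliferation markers were higher in 11 of 11 cases, with a median of 0.68, and lay at 0.92 on Ifnar1-/- array 1 and at 0.31 on Ifnar1-/- array 2. Their summed linear intensity was 15035 and 9747 on the Ifnar1-/- arrays against 7080 and 8178 on the Ifnar1+/+ arrays, with Ccna2 and Ccnb2 not above background on any array. Absorptive enterocyte markers were lower in 9 of 10 cases, and their sum was 66137 and 117236 against 146534 and 132844 in Ifnar1+/+ cells (Fabp1 and Fabp2 not above background). Of the T cell markers, 5 were detected on all 4 arrays, and these 5 were lower, with a sum of 274 and 416 against 708 and 717 in Ifnar1+/+ cells. Another 2, Cd3d and Cd3g, were detected on both Ifnar1+/+ arrays but not on both Ifnar1-/- arrays and are not counted. Cd3g was detected on 1 Ifnar1-/- array and Cd3d on neither. Cd2, Cd7, Cd8a, Gzma, Gzmb and Ptprc were not above background. The part of these groups in the proteasome values was not tested.

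**Figure D4:**
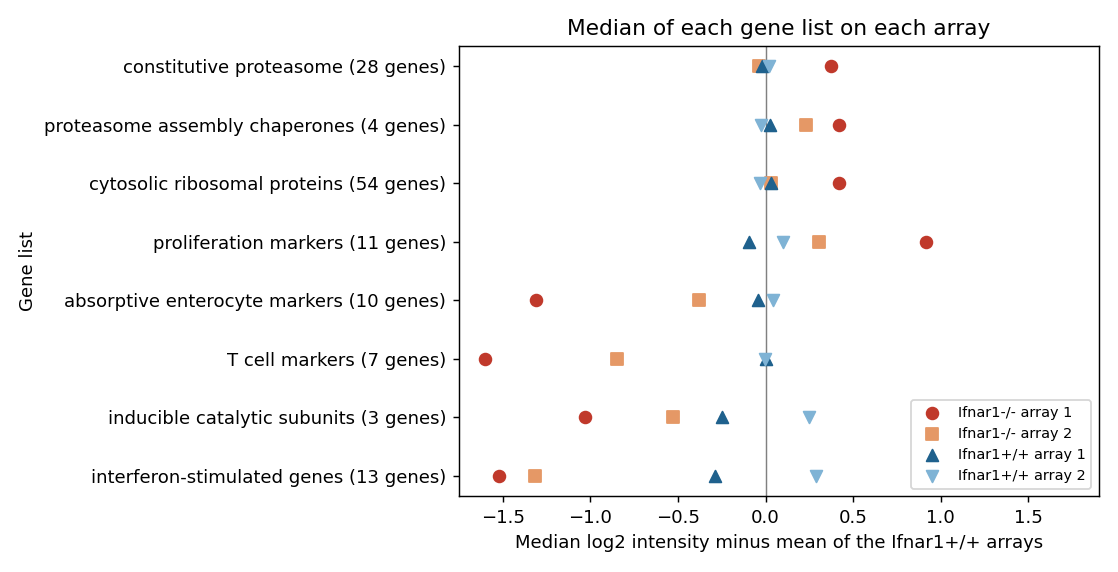
Median over the genes of each list of the normalized log2 intensity relative to the mean of the Ifnar1+/+ arrays (x axis), for each array, with the lists down the y axis. For the constitutive proteasome and the ribosomal proteins Ifnar1-/- array 1 stands apart at 0.38 and 0.42, whereas both Ifnar1-/- arrays are low for the inducible subunits and the interferon-stimulated genes. Among the plotted genes 2 T cell markers and 4 interferon-stimulated genes were not detected on all 4 arrays. Of these, Cd3d, Cd3g, Oas2, Ifit2 and Bst2 passed the filter through the Ifnar1+/+ arrays, where they are higher. Over the 9 interferon-stimulated genes detected on all 4 arrays, the medians were -1.62 on Ifnar1-/- array 1 and -1.31 on Ifnar1-/- array 2. Over the 5 such T cell markers they were -1.60 and -0.80.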

How the data were processed

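Cells were profiled on 4 Illumina bead arrays, and groups were taken from the sample titles, since the protocol writes Ifnar1+/+ for both crosses. The deposited raw intensity values are mean bead signals per probe, without background subtraction or scaling per the file headers and values, from GenomeStudio 1.8 per the submitters' processing notes. Detection p-values, also deposited, rate a signal against the negative control beads. The deposited normalized intensity values are linear with nearly equal medians, by a method not given in the sources used here. On each of the 4 arrays they ran from 93.1 to 57820.3.

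Background correction from the detection p-values, quantile normalization and the log2 step were done by the function neqc (limma 3.58.1, R 4.3.3, offset 16). The offset pulls differences of dim genes toward 0. Probes with detection p under 0.05 on at least 2 of 4 arrays were kept (11884 of 25697), and the brightest stood for each gene. The platform annotation gave the symbols (23978 probes with 1 symbol, 1719 with none), and 23962 were found in the RefSeq table, with 0 changed. Groups were compared over 8442 genes with lmFit and eBayes, two-sided, with Benjamini-Hochberg adjustment. Residual degrees of freedom were 2 and prior ones 4.54. The fit was also run on simulated data with independent noise per gene and array. That simulation held no shift shared by many genes on 1 array, so it tells nothing about such shifts. Intervals of 95% are from the fit to the real arrays and not adjusted. The catalytic pairs were tested by exact permutation over arrays. Values in full are given for the 3 genes with the smallest p per role and the catalytic subunits. Of each pathway list, the difference is given for the 2 with the smallest p, except for Uba6, and values in full for only some of these. Psma4, Psmd1, Psmd14, Nfe2l1 and Psme2 were added after their values were seen. The members, lists and rules were chosen with earlier results of these data known. Over markers detected on all 4 arrays, a limit set after seeing the data, the median difference (with its range when 1 array was left out) was -0.35 (-0.82 to 0.12) for B cells (1 gene), -1.23 (-1.61 to -0.84) for myeloid cells (2), -1.27 (-2.22 to -0.32) for fibroblasts (3; least without Ifnar1+/+ array 1), 0.70 (0.45 to 0.94) for Paneth cells (4), -0.31 (-0.74 to 0.04) for goblet cells (4), -0.21 (-0.45 to -0.02) for epithelium (9), -0.61 (-0.91 to -0.20) for the small intestine (6), -1.35 (-2.26 to -0.45) for the colon (1) and -1.44 (-1.73 to -1.20) for interferon-stimulated genes (9). Alternatives were the background correction, offset, scaling, starting values, filter, probe rule, variance trend, array weights, threshold, replicate block and leaving out each array. Plots used Python 3.11.15 and matplotlib 3.10.9.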

Additional observations from a re-analysis of the deposited data

How the results depend on the processing

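No constitutive proteasome gene passed under any alternative run. The count was 0 under each change of background correction (none, or an offset of 50), scaling (median scaling, or the values as deposited), filter (none, or detection p under 0.01 on 4 of 4 arrays), probe rule (probe mean, or a fit per probe) and model (intensity trend, array weights, threshold of 0.1, replicate block), and with each array left out. A fit with 1 array left out has a lone array in 1 group, which is assumed to vary as the other group does, so its counts show little about stability. At an unadjusted p under 0.05 there were 0 to 2 genes with all arrays, 2 (both lower) without Ifnar1-/- array 1, 7 (all higher) without Ifnar1-/- array 2 and 0 without either Ifnar1+/+ array. Over all tested genes, 0 passed with all arrays, while 14 passed with Ifnar1+/+ array 2 left out and 5 with Ifnar1+/+ array 1 left out. The median difference was 0.20 to 0.31 under the other settings and, with 1 array left out, ranged from -0.040 to 0.38. It was -0.040 without Ifnar1-/- array 1, and that value rests on Ifnar1-/- array 2 alone. Median scaling moved the median of all genes to 0.11 and that of the members to 0.31, with 25 higher and 3 lower. Ifnar1-/- array 1 was above array 2 for all members tested under each alternative that kept both, apart from the run with no filter (32 of 34). With the replicate block the median was 0.22, and the count of calls remained 0; same-numbered arrays did not deviate together (r = -0.05 over genes), so the numbers were not used as pairs.

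Psmd10 was -0.043 with the mean of its probes and -0.30 by another probe. With 1 array left out Psmb6 ranged from -0.019 to 0.52, Psmc1 from -0.083 to 0.88 and Psmb7 from -0.17 to 0.31, each lowest without Ifnar1-/- array 1 and highest without Ifnar1-/- array 2, and Psmb5 from -0.63 to 0.017 in the same order. With 1 array left out the pair differences ranged from -1.08 to 0.10 (Psmb8 minus Psmb5), from -1.55 to -0.76 (Psmb9 minus Psmb6) and from -0.91 to -0.31 (Psmb10 minus Psmb7). With no background correction, and likewise with the values as deposited, Psmb8 was at -0.31, Psmd11 at -0.27 and Psmb5 at -0.21. Since both runs gave the same rounded values for these genes, they are not separate checks. Psmc3ip was at 0.41 with no correction and ranged from 0.30 to 1.21 with 1 array left out. The Psmb8 pair was at -0.10 with no correction, and it had no value under the strict filter, which left Psmb8 out. The cause of these shifts was not tested beyond the arrays and probes left out. Dim genes such as Psmd11 and Psmb8 lie nearest to background, where signal over background limits the values.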
